A study of Mus musculus with 12 samples.

Results

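H3K9me3 peaks that were called in the crypts of the mouse small intestine and had no counterpart in the villi were analysed. A peak of the crypts list belonged to this set when no peak of the villi list overlapped it by even 1 bp, and 1289 of the 2126 crypts peaks (60.6%) did so, out of 169081 peaks of all modifications in the lists used. The other 837 crypts peaks overlapped a villi peak and are called shared, and 1219 of the 2089 villi peaks (58.4%) overlapped no crypts peak and are called villi-only. The set was therefore chosen by the peak calls themselves, so its size, its scores and its distance to villi peaks describe the choice and are not results about crypts.

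The study compared chromatin of crypts and villi, in order to see where H3 modifications that can be lost with the clipped N-terminal tail lie along the crypts-villi axis. Crypts hold stem cells, Paneth cells and dividing progenitors, whereas villi hold mostly differentiated enterocytes, so each sample was a mixture of cell types from tissue. Villi were scraped from the opened intestine and crypts were released afterwards with EDTA, and whether animals were pooled is not given in the sources used here. The labels name no genotype, strain, age, sex or treatment for either compartment. ChIP-Rx, which is ChIP-seq with foreign chromatin added for scaling, was performed with an antibody against H3K9me3 on chromatin that contained 5% of Drosophila S2 chromatin, and in the same way for H3K4me1, H3K4me3, H3K9me2 and H3K27me3. Each compartment and modification is represented by 1 library, so no difference between crypts and villi has a replicate check, no test between them was made and every interval given below covers counting error over peaks only. Read counts are not part of the lists, and library depth is unknown.

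H3K9me3 is the mark of constitutive heterochromatin and is read by HP1 proteins. Outside the repeats around centromeres it is laid down mainly by SETDB1, which is brought to DNA by TRIM28 and by KRAB zinc finger proteins that recognise sequences within retrotransposons. The same mark is known at the exons of zinc finger genes themselves, at the methylated allele of imprinted genes and at promoters of germline genes that are silent in somatic tissues. The crypts-only peaks are described here by their repeated sequence, genes and other marks, and a few of the sequences are shown first.

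To show the repeated sequence under these peaks, the crypts-only peaks were aligned to each other and 300-base windows were chosen in turn that matched the most peaks of the set not yet matched. The windows of the first 3 families are given on the forward strand of mm10, in lower case with each CG dinucleotide in capitals. The first lay at chr5:30034358-30034657, 14202 bp from Il6. The second lay at chr7:41587628-41587927, near 2610021A01Rik, and the third, without a CG, at chr9:51124112-51124411, near Btg4.
Family 1: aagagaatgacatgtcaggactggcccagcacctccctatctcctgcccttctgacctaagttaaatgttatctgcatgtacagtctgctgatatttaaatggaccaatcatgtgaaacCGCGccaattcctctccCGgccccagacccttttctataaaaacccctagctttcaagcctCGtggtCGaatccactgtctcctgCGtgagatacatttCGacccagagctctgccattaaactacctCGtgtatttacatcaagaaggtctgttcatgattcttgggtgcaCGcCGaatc
Family 2: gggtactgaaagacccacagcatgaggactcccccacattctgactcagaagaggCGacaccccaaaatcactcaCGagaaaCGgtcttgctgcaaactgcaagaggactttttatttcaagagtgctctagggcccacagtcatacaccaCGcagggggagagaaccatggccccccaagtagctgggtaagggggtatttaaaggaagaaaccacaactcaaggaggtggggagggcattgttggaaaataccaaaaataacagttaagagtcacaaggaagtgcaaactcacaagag
Family 3: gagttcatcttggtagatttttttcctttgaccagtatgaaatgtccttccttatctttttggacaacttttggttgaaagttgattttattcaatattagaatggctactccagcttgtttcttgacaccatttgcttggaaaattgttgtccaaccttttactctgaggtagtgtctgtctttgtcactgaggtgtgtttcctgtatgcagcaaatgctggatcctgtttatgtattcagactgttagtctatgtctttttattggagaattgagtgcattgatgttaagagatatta

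To show another kind of sequence, which is rich in CG, 4 promoters under crypts-only peaks are given. They are the RefSeq promoters of GRCm38.p6, from 250 bases before to 50 bases after the start, all on the forward strand, with CG in capitals. Brdt (chr5:107330944-107331243) encodes a bromodomain protein of the testis and Slc25a31 (chr3:40708621-40708920) the ADP/ATP carrier of germ cells, and both were on the list of germline genes. Stag3 (chr5:138280259-138280558), a cohesin subunit of meiosis, and Rbmxl2 (chr7:107209195-107209494), an RNA-binding protein of the testis, were on no list of genes and are shown because of their role in germ cells, which was noted after their values were seen.
Brdt: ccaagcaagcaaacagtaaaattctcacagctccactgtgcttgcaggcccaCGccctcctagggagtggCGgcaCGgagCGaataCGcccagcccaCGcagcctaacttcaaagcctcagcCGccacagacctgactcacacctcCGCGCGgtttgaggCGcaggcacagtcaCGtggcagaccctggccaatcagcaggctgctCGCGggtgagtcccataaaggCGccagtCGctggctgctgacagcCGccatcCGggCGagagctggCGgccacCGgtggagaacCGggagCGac
Slc25a31: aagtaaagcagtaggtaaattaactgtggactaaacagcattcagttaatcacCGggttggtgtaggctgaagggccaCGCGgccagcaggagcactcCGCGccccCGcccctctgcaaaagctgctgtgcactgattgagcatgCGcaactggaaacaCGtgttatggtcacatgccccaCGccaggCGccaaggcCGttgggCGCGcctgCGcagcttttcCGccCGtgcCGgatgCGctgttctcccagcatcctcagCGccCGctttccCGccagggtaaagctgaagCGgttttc
Stag3: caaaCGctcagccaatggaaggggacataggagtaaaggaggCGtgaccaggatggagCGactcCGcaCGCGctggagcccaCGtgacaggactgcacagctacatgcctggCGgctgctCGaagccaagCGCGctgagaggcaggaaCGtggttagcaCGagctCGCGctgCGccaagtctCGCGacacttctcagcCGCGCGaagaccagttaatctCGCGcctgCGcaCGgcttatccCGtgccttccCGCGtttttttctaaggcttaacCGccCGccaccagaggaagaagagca
Rbmxl2: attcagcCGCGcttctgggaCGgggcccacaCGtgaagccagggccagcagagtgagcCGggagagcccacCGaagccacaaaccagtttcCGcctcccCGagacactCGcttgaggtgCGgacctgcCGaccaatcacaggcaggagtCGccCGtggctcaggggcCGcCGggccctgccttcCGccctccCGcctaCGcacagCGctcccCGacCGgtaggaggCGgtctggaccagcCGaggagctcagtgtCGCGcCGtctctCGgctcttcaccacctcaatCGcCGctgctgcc
They hold 23, 22, 30 and 29 CG dinucleotides. The palindrome CG was counted, so both strands give the same number. Across 32851 promoters of the same table and length the median was 7 and the 90th percentile 31, and 94.6% held at least 1 CG.

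To show the repeat inside zinc finger genes, 3 neighbouring units of 84 bases from the crypts-only peak in Zfp977 (chr7:42579169-42581067) are given, read on the reverse strand at chr7:42580374-42580457, chr7:42580290-42580373 and chr7:42580206-42580289. Each unit codes for a zinc finger with its linker, and the capitals mark the 64 of 84 positions (76.2%) that are identical in all 3.
Unit 1: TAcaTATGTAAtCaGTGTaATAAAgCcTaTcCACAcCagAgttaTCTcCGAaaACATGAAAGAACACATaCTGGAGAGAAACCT
Unit 2: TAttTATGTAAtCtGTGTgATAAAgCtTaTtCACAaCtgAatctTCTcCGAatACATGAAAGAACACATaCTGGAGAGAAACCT
Unit 3: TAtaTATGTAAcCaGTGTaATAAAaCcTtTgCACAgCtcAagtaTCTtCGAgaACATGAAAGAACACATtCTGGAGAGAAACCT

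The crypts-only peaks were mostly weak and narrow calls. Their score, the authors' −log10 p-value, ran from 10.0 to 32.2 with a median of 11.7, against 14.96 for shared crypts peaks, and 558 of them (43.3%) reached the median of the whole list, 12.8. Close to the calling threshold, 396 (30.7%) scored below 11. Their median width was 725 bp (quartiles 540 and 1083), against 1226 bp for shared crypts peaks and 674 bp for villi-only peaks. Together they covered 1.16 Mb, which was 45.6% of the bases of the crypts list. As values of the rule itself, these are given without a test.

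Of the 10 strongest crypts-only peaks, 2 lay in a protein-coding gene, beside 449 of all 1289 (34.8%). The highest score, 32.2, belonged to a peak of 831 bp at chr6:124552505-124553335, 10146 bp from C1s1, a protease of the complement cascade, and the nearest villi peak lay 52869 bp away. A peak near Tmem44 scored 26.96, and a peak of 1700 bp in an intron of Smchd1, a chromatin protein of X inactivation, scored 25.8. Near Apob, the apolipoprotein of chylomicrons, a peak at chr12:7825007-7827218 scored 25.7 at a distance of 150430 bp from the gene. The same score was reached in an intron of Zfp160, and the rest of the 10 strongest lay near Gm10153, C130026I21Rik, Hmga2, Serinc3 and Cdip1, with scores from 23.3 to 25.2. These 10 peaks differed in repeat content, from 9.33% of soft-masked bases at C130026I21Rik to 75.8% at Serinc3.

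The widest crypts-only peak covered 7219 bp of BC005561 (chr5:104515507-104522725), reached an exon and had 13.8% of its bases masked. It was followed by a peak of 4509 bp in A630089N07Rik and B230307C23Rik, which overlap each other. A peak of 4197 bp lay near Yes1, a kinase of the Src family, one of 3844 bp in Zfp729a and one of 3601 bp near Atf7ip2. That of BC005561 was 59372 bp from a villi peak, but the peak near Atf7ip2 was 291 bp from one.

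The distance from crypts-only peaks to villi peaks varied widely. The median distance to the nearest villi peak was 264303 bp, with quartiles of 32564 and 823157 bp. It was 1 kb or less for 45 peaks (3.49%), 10 kb or less for 208 (16.1%, 95% Wilson interval 14.2 to 18.2%) and 1 Mb or less for 1033 (80.1%). In the other direction, villi-only peaks lay at a median of 179559 bp from the nearest crypts peak, and 202 of them (16.6%) were within 10 kb. Distances for random positions were not computed, so these distances are not called large or small. Closest to the limit of the rule were peaks in introns of Desi2, Ccdc85a and Ajap1, which lay 27, 32 and 77 bp from a villi peak. On the other side of the limit, the smallest overlaps that made a peak shared were 35 bp near Zfp992 and 43 bp near Csmd2. The number of peaks near the limit was small, with 3 crypts-only peaks within 100 bp of a villi peak and 2 shared peaks with an overlap of 100 bp or less.

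**Figure D1:**
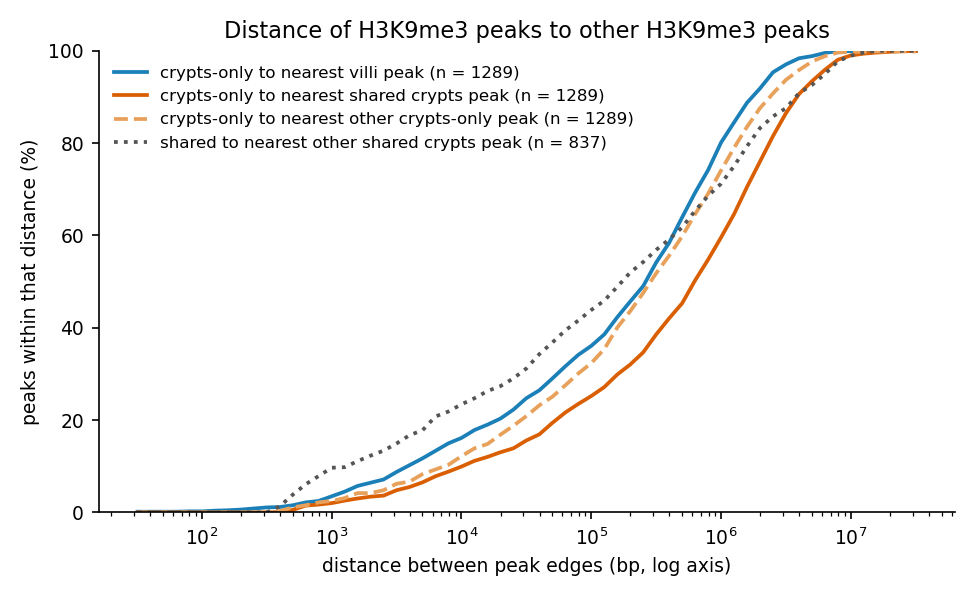
Cumulative share of peaks (y axis, %) within a given distance (x axis, bp, log axis) of the nearest peak named in the legend. The curve from crypts-only peaks to shared crypts peaks runs below that from shared to other shared peaks over most of the axis, with medians of 625698 and 177306 bp.

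In each list, the distance to shared H3K9me3 peaks was larger for the unshared peaks than for shared peaks among themselves. The nearest shared crypts peak lay at a median of 625698 bp from a crypts-only peak, against 177306 bp from another shared crypts peak. Within 10 kb of a shared crypts peak were 128 crypts-only peaks (9.93%, 8.41 to 11.7%), against 196 shared crypts peaks (23.4%, 20.7 to 26.4%). In the villi list, measured to its own shared peaks, the medians were 730019 bp for villi-only and 138506 bp for shared villi peaks, and 109 (8.94%, 7.47 to 10.7%) and 242 (27.8%, 24.9 to 30.9%) lay within 10 kb. Being shared is the rule itself, and neighbouring peaks under 1 peak of the other list all count as shared, so that these distances are partly set by the choice and are given as a description. Another crypts-only peak was within 10 kb for 157 (12.2%, 10.5 to 14.1%), and at a median distance of 283621 bp. The peak most isolated from any H3K9me3 peak was at the start of AU022751 on chromosome X, 19669161 bp from a villi peak. On the autosomes the most isolated were near Snx5, Flrt2, Jag1 and Gramd3, with villi peaks 4149055 to 5897936 bp away.

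The numbers in the peak names show that both lists were reduced after the calls. The crypts numbers reach 6830 with 2126 peaks listed (31.1%) and the villi numbers 6635 with 2089 (31.5%), and they rise along the chromosomes. A crypts-only peak that lies between villi peaks with consecutive numbers therefore had no villi call removed around it. This held for 128 of the 1258 crypts-only peaks for which it could be settled (10.2%, 8.62 to 11.97%). Over all 1258, a median of 3 villi numbers (quartiles 1 and 6) were missing in the interval around the peak, and whether any of these calls lay at the peak cannot be told apart from the lists. For villi-only peaks the share was 74 of 1205 (6.14%, 4.92 to 7.64%). The strongest crypts-only peaks without a missing villi number were those near C130026I21Rik, with a score of 24.5, and near Serinc3, with 24.4. They were followed by peaks in introns of Stk3, a Hippo pathway kinase (22.0), and Snap47 (20.7) and by a peak near Ly6c1 (18.4). At 3 of these 5, near C130026I21Rik, Serinc3 and Ly6c1, only 23.3, 57.8 and 55.4% of the 50-base words occur once in the genome, so reads there could have been placed elsewhere.

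Crypts-only peaks were spread over all autosomes with a density that varied. It was highest on chromosome 17, with 0.872 peaks per Mb of sequenced bases (80 peaks), followed by chromosome 4 with 0.783 (119 peaks) and chromosome 16 with 0.747 (71 peaks), and lowest on chromosome 14 with 0.329. Villi-only peaks had another order, with 1.27 per Mb on chromosome 4 and 0.326 on chromosome 16. On chromosome 16, 66.4% of the crypts peaks were crypts-only (56.97 to 74.6%), which includes the whole-list value of 60.6%. Only 2 of the 9 crypts peaks on chromosome X and none of the 12 on chromosome Y were crypts-only.

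**Figure D2:**
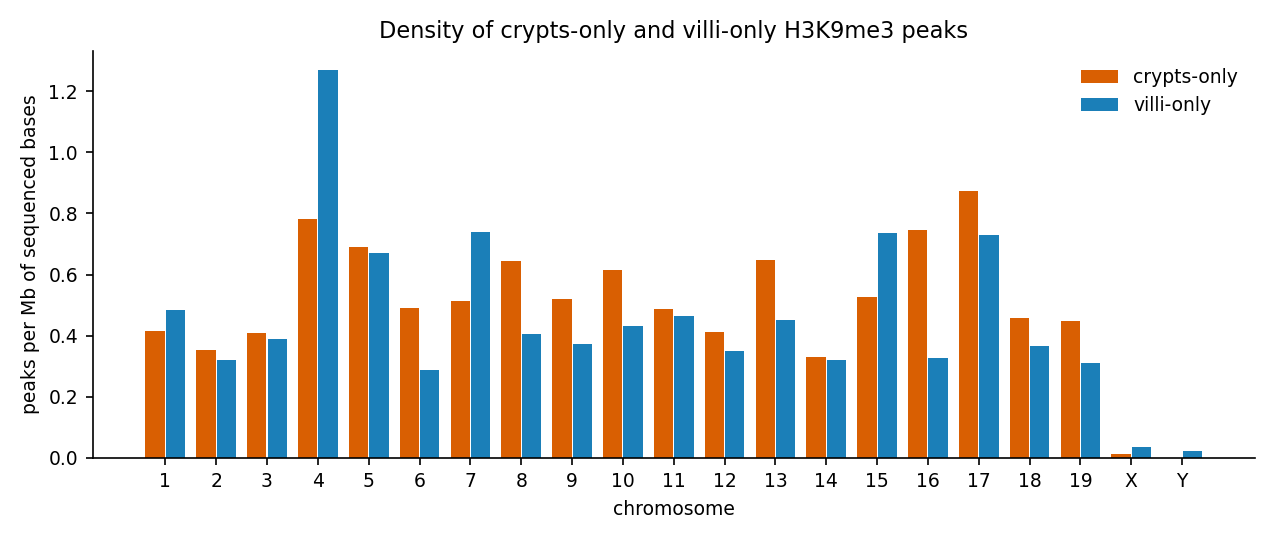
Peaks per Mb of sequenced bases (y axis) on each chromosome (x axis) for crypts-only and villi-only H3K9me3 peaks, 1 library each. Crypts-only peaks reach 0.872 per Mb on chromosome 17 and 0.747 on chromosome 16, where villi-only peaks are at 0.326.

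By the median, crypts-only peaks held more repeat sequence than shared or villi-only peaks. In the reference sequence a median of 47.5% of their bases was soft-masked as repeat (quartiles 28.6 and 67.0), against 41.7% in shared crypts peaks, 37.2% in villi-only peaks and 36.4% of all sequenced bases. At least 50% of the bases were masked in 604 crypts-only peaks (46.9%, 44.1 to 49.6%), in 37.2% of shared (33.9 to 40.5%) and in 36.7% of villi-only peaks (34.01 to 39.4%). At the upper end, 71 crypts-only peaks (5.51%, 4.39 to 6.89%) were masked over 90% or more of their length, against 26 shared (3.11%, 2.13 to 4.51%) and 47 villi-only peaks (3.86%, 2.91 to 5.09%), and these intervals overlap. At the lower end, 118 crypts-only peaks (9.15%, 7.70 to 10.9%) had under 10% masked, close to the 81 shared peaks (9.68%, 7.85 to 11.9%) and below the 259 villi-only peaks (21.2%, 19.04 to 23.6%). Without a masked base were 2.48% of crypts-only, 1.19% of shared and 4.59% of villi-only peaks. The order of crypts-only above shared peaks was the same when the list was cut by score into 4 parts of like size, from 46.8 against 32.7% in the weakest part to 49.9 against 44.0% in the strongest. GC content was similar in crypts-only and shared peaks, with medians of 45.5 and 45.7%, and higher in villi-only peaks, with a median of 48.1% (quartiles 44.98 and 51.1, against 42.1 and 48.7 in crypts-only peaks).

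Most 50-base words in crypts-only peaks occurred once in the genome. The median share of such words in a peak was 94.7%, against 92.3% for shared crypts peaks and 98.4% for villi-only peaks. Every word was unique in 383 crypts-only peaks (29.7%, 27.3 to 32.3%), and fewer than 50% were in 48 (3.72%, 2.82 to 4.90%). The authors kept 1 alignment per read, so a read from a repeated word can be counted at another copy, and the part of this in the calls was not tested.

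**Figure D3:**
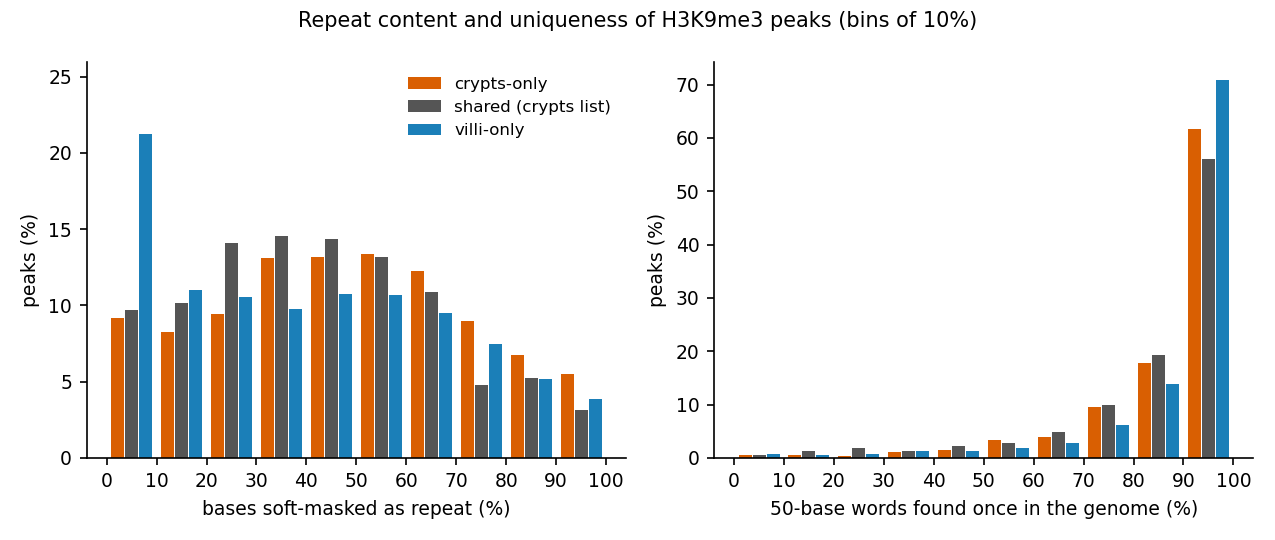
Share of peaks (y axis, %) in bins of 10% of soft-masked bases (left) and of 50-base words found once in the genome (right), for crypts-only, shared crypts and villi-only H3K9me3 peaks. In the lowest bin of soft-masked bases villi-only peaks stand at 21.2%, crypts-only peaks at 9.15% and shared peaks at 9.68%.

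Crypts-only peaks shared their sequence with each other and with the other H3K9me3 peaks. A stretch of at least 200 bp with 80% identity was found in another crypts-only peak for 697 of them (54.1%, 51.3 to 56.8%), and this share depended on the setting, with 21.7% at 90% identity and 28.9% over 400 bp. Such a stretch was found in a shared crypts peak for 665 (51.6%) and in a villi-only peak for 627 (48.6%). Among themselves, 63.2% of shared crypts peaks and 38.3% of villi-only peaks had one, although these sets differ in number and width, which bears on the chance of a match.

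The families shown above differed in copy number by over an order of magnitude. Their windows were chosen because they matched the most crypts-only peaks, which favours the counts under crypts-only peaks, so those under the other peaks are given as a description and the order of the groups is not a result. Family 1 had 654 copies in mm10, of which 40 overlapped a crypts-only peak (6.12%), 46 a shared crypts peak (7.03%) and 18 a villi-only peak (2.75%). Family 2 had 1244 copies, with 45 under crypts-only peaks (3.62%), 22 under shared and 24 under villi-only peaks. Family 3 had 27745 copies and only 27 (0.0973%) lay under a crypts-only peak, 3 under a shared and 7 under a villi-only peak. In each of the 3 most copies carried no H3K9me3 peak, from 84.1% in family 1 to 99.9% in family 3. The crypts-only peaks of family 1 lay on 16 chromosomes, with scores from 10.05 to 26.96, a median of 66.6% of masked bases and 80.8% unique 50-base words.

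A further 6 families were found by the same search. The fourth, from a window in Mgat5, had 15067 copies and was met by 43 crypts-only, 33 shared and 57 villi-only peaks. The fifth, from the wide peak in Zfp729a, had 6146 copies, of which 69.7% had another copy on the same strand at 1 to 10 kb, and was met by 35 crypts-only, 12 shared and 20 villi-only peaks. Its crypts-only peaks were the least unique of the families, with a median of 52.9% unique 50-base words. The remaining 4, with windows near Ncapg, Clpx and Dmac1 and in Atp6v0a4, had 158 to 567 copies and were met by 11 to 16 crypts-only peaks. Of the 161 copies of the Atp6v0a4 family, 9.32% lay under a crypts-only, 9.94% under a villi-only and 15.5% under a shared peak, which were the highest such shares of the 9 families. No repeat class was assigned to the families.

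Crypts-only peaks lay in protein-coding genes about as often as shared peaks, and like villi-only peaks they reached exons less often than shared peaks did. Of the 1289, 449 overlapped a protein-coding gene (34.8%, 32.3 to 37.5%), against 36.6% of shared crypts peaks (33.4 to 39.9%) and 28.5% of villi-only peaks (26.004 to 31.1%), and such genes cover 39.3% of the sequenced bases. An exon was touched by 105 crypts-only peaks (8.15%, 6.77 to 9.77%), by 84 villi-only peaks (6.89%, 5.60 to 8.45%) and by 149 shared peaks (17.8%, 15.4 to 20.5%). Since crypts-only peaks were narrower, the middle base of each peak was looked at as well. It lay in an exon for 5.59% of crypts-only (4.46 to 6.98%), 4.92% of villi-only (3.84 to 6.28%) and 10.9% of shared peaks (8.94 to 13.2%), and exons cover 3.63% of the sequenced bases. In the 4 parts of the list by score the exon share of crypts-only peaks was 6.27, 8.12, 10.2 and 8.82% from the weakest to the strongest, against 15.4, 11.4, 15.3 and 22.7% of shared peaks, and the intervals overlap in the second and the third part. Only an intron was touched by 344 crypts-only peaks (26.7%, 24.3 to 29.2%), against 157 shared (18.8%, 16.3 to 21.5%) and 263 villi-only peaks (21.6%, 19.4 to 23.97%). Outside any annotated gene lay 710 (55.1%).

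**Figure D4:**
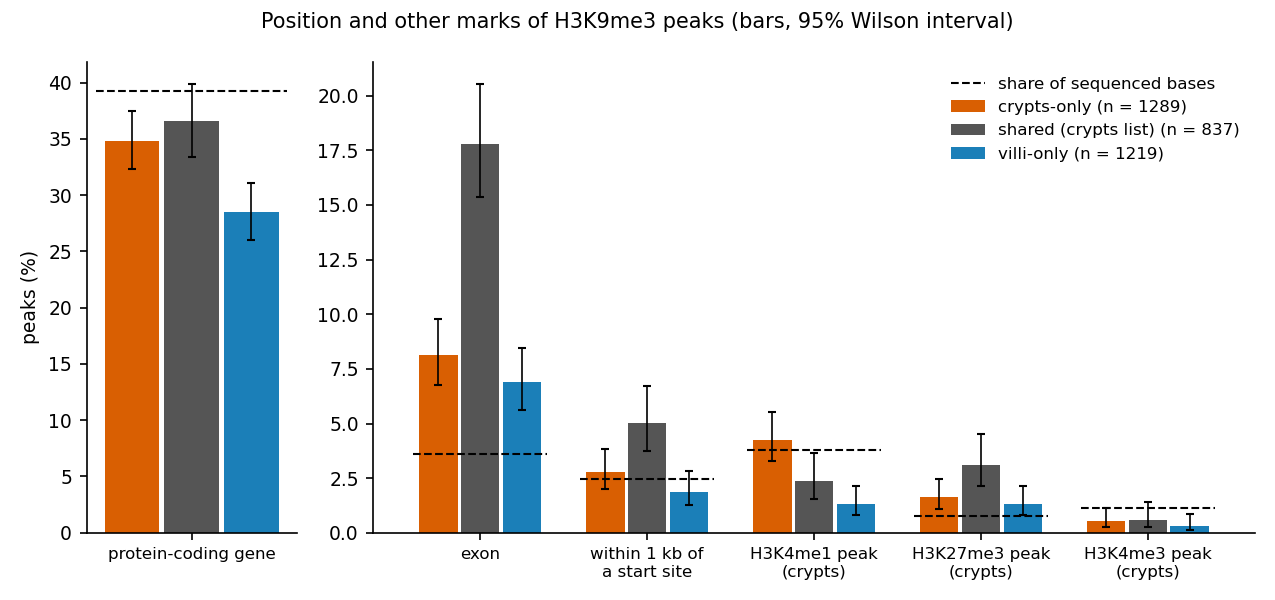
Share of crypts-only, shared crypts and villi-only peaks (y axis, %) that overlap each feature on the x axis, with 95% Wilson intervals over peaks as error bars. Dashed lines give the share of sequenced bases, which is not on the same footing as a share of peaks because a peak is wider than 1 base. Exons were met by 8.15% of crypts-only and 17.8% of shared peaks.

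In all, 432 of 21911 protein-coding genes (1.97%) had a crypts-only peak inside them or within 1 kb of a start site, against 297 (1.36%) with a shared crypts peak and 290 (1.32%) with a villi-only peak, and 11 genes held at least 3 crypts-only peaks. Tiam1, an activator of the small GTPase Rac, held 11 crypts-only peaks, more than any other gene. The gene lies on the reverse strand of chromosome 16 from 89787111 to 90143769. The peaks were spread over 125.5 kb, from 120.2 to 245.8 kb downstream of its outermost annotated start. Tiam1 also has start sites within this stretch, and the smallest distance from a crypts-only peak to one was 3946 bp. The 11 crypts-only peaks were 554 to 2918 bp wide and scored 10.7 to 22.0. Unlike most of the set they held little repeat sequence, with a median of 14.8% of masked bases and 9 of the 11 under 20%. Like most of the set, none overlapped an H3K4me1 or H3K27me3 peak of either compartment. Over all crypts-only peaks these marks met 4.27 and 1.63% in crypts and 4.58 and 2.40% in villi. Another 4 crypts peaks in the gene were shared. These were 2929, 4488, 4902 and 6067 bp wide in crypts, and the villi peaks at the same places were 1158, 2278, 819 and 1215 bp wide. The crypts peak was the wider in each of the 4 pairs, and over the whole lists shared peaks were also wider in crypts, with medians of 1226 and 1024.5 bp. Only 2 villi-only peaks, of 1334 and 411 bp, were called in the gene.

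**Figure D5:**
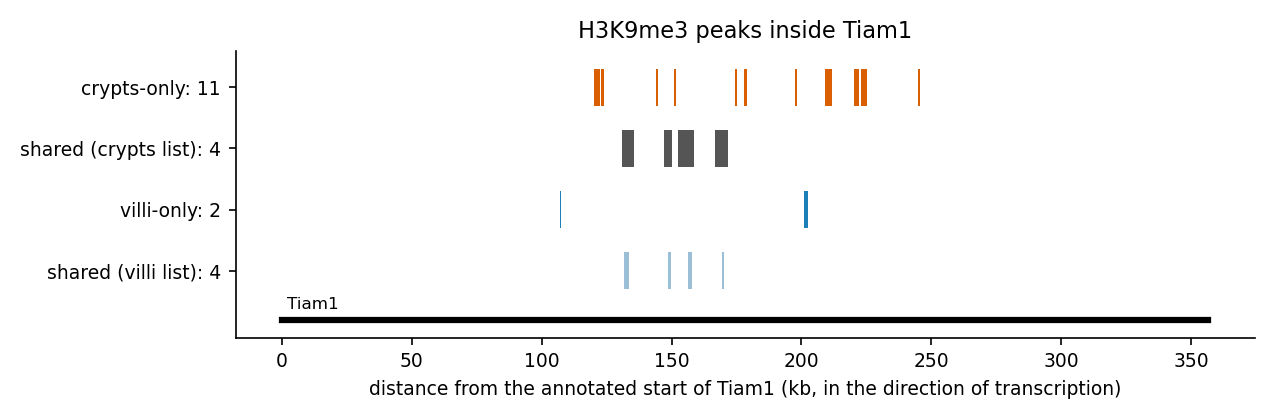
H3K9me3 peaks inside Tiam1, drawn to scale against the distance from its outermost annotated start (x axis, kb), with a row for each group of peaks and the gene as a black line. Start sites within the gene are not drawn. The 11 crypts-only peaks lie on both sides of the 4 shared peaks, which are wider in the crypts list than in the villi list.

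Trim24, a bromodomain cofactor of nuclear receptors, held 4 crypts-only peaks of 663 to 1711 bp and 1 shared peak, with no villi-only peak. C130026I21Rik, D10Wsu102e and Gm20388 also held 4 each. At C130026I21Rik 9 shared and 9 villi-only peaks were called as well, and the least unique of its crypts-only peaks had 8.79% of unique 50-base words. Zfp930, Zfp935 and D130040H23Rik held 3 each, the latter pair without a shared or villi-only peak. The last 3 genes with 3 peaks, Gm37388, Gm42416 and Gm37013, are overlapping models over the protocadherin clusters and refer to the same peaks.

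Zinc finger genes were 46 of the 432 genes with a crypts-only peak. Of the 466 protein-coding genes whose symbols begin with Zfp, Zkscan, Zscan, Zbtb or Rslcan, 9.87% had a crypts-only peak, against the 1.97% of all protein-coding genes. A shared crypts peak was found at 55 of them (11.8%) and a villi-only peak at 19 (4.08%). In terms of peaks, 54 crypts-only peaks lay in such a gene (4.19%, 3.22 to 5.43%), against 68 shared (8.12%, 6.46 to 10.2%) and 24 villi-only peaks (1.97%, 1.33 to 2.91%), while these genes cover 0.575% of the sequenced bases. Genes of this family resemble each other, so that reads could be placed at a paralogue.

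Within these genes, the longest coding exon, which usually codes for the fingers, was overlapped by 19 of the 54 crypts-only peaks, by 8 of the 24 villi-only and by 49 of the 68 shared peaks. Shared peaks were wider, with the medians given above, which bears on these counts, and the difference was not tested. Among those with a crypts-only peak in an exon were Zfp946 and Zfp329, both with a score of 22.0, Zfp273 (17.2), Zfp120 (15.4) and Zfp790 (14.96). In introns lay the peak of Zfp160 (25.7), 3 peaks of Zfp930 (11.7 to 13.9) and 2 peaks each of Zfp81 and Zfp943, of which that of Zfp943 at chr17:21976399-21977542 was masked over 95.8% of its length.

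The repeat of the zinc finger itself could be followed in the sequence. Each peak was compared with itself at shifts of 30 to 150 bases, and only its best shift was kept. The best shift was 84 bases, with identity at 40% or more of the positions, in 28 crypts-only peaks (2.17%, 1.51 to 3.12%), 57 shared crypts peaks (6.81%, 5.29 to 8.72%) and 10 villi-only peaks (0.820%, 0.446 to 1.503%). No other shift was the best at this level in more than 2 crypts-only peaks. Zfp977, whose units are printed above, matched at 63.4% of positions, with Zfp426 and Zfp583 at 62.5 and 62.3%. Of the 28 peaks, 14 lay in an exon of a listed zinc finger gene, 4 in an exon of another gene and 10 outside exons. The peak with the highest match, 80%, was in an exon of D130040H23Rik, and the next, 78.0%, lay near Gm9495.

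Crypts-only peaks lay at promoters about as often as the share of bases in the promoter window. Within 1 kb of a protein-coding start site lay 36 (2.79%, 2.02 to 3.84%), at 35 genes, against 42 shared crypts peaks (5.02%, 3.73 to 6.71%) and 23 villi-only peaks (1.89%, 1.26 to 2.82%), and this window covers 2.44% of the sequenced bases. The share depended on the definition, with 1.78% (1.19 to 2.66%) by the middle base of the peak, 8.38% with start sites of all annotated transcripts and 11.7% within 5 kb. The strongest was at Bglap3, an osteocalcin-related gene, with a score of 21.2 and 58.5% of masked bases. It was followed by Coro2b, an actin-binding coronin (19.7), and Tmbim1 (19.6). Further promoters with a peak in the upper part of the list were those of Gm6020 (16.1), 6430550D23Rik and AU022751 (14.96 each). Hapln2, Defb39, Orc2 (a subunit of the origin recognition complex) and Ak4 (an adenylate kinase of mitochondria) had scores of 13.5, 13.4, 13.2 and 12.8. Zinc finger genes accounted for 6 of the 36 peaks, at Zfp263, Zfp442, Zfp579, Zfp872, Zfp942 and Zfp951, with scores of 10.1 to 11.7. Their list holds 466 of the 21911 protein-coding genes. The same count was not made for shared and villi-only peaks, and nothing is read from it.

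In 13 of the 36 promoter peaks under 10% of bases were masked, and these included peaks at germline and imprinted genes. The peak at Brdt (chr5:107330968-107331366) covered 276 of the 300 promoter bases printed above, scored 10.7 and held no masked base, and the nearest villi peak was 1779660 bp away. At Slc25a31 (chr3:40708624-40709382) the peak scored 14.7 and covered 297 of the 300 bases. The peak at Rbmxl2 scored 13.9 and covered the whole promoter, but a villi peak lay 468 bp from it. The peak at Stag3 held more repeat sequence, with 27.98% of masked bases against a median of 26.6% in the 36 promoter peaks. It also scored 14.7, covered 210 of the 300 bases and lay on H3K4me3, H3K27me3 and H3K4me1 peaks of crypts. Of the 22 listed germline genes, these 2, Brdt and Slc25a31, had a crypts-only peak, none had a shared peak and 1 had a villi-only peak. Over all protein-coding genes these shares were 1.97, 1.36 and 1.32%, and with 22 genes on the list nothing is read from the counts.

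Of 27 protein-coding imprinted genes on the list, 3 had a crypts-only peak, 3 a shared and 2 a villi-only peak, again beside 1.97, 1.36 and 1.32% of all protein-coding genes. Grb10, which encodes an adaptor that restrains insulin signalling, had a peak of 513 bp without a masked base 187 bp from a start site (chr11:12025625-12026137), with a score of 14.96. Its ratio of observed to expected CpG was 0.913, against a median of 0.191 in all crypts-only peaks. At Gnas, the gene of the stimulatory G protein alpha subunit, crypts-only peaks lay over start sites at chr2:174285066-174286260 and chr2:174297047-174299137, with scores of 11.7 and 11.9 and CpG ratios of 0.698 and 0.652. The peak in Plagl1, a zinc finger transcription factor, was of another kind, 10676 bp from a start site and with 67.8% of masked bases. The alleles were not separated.

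The other lists are given beside the 1.97% of all protein-coding genes with a crypts-only peak. A crypts-only peak was found at 1 of 1134 olfactory receptor genes (Olfr539) and at 1 of 328 vomeronasal receptor genes (Vmn2r10). Among the clustered protocadherins 18 of 56 genes were counted, but only 3 peaks did this, because the gene models overlap. None of the 67 histone genes, of the 12 genes of crypts cells such as Lgr5 and Olfm4, of the 10 genes of villi cells such as Apoa1 and Fabp1, and of the 13 genes of H3K9 methylation and its readers such as Setdb1 and Trim28 had one. At a share of 1.97% lists of this size would hold few such genes or none, so that these counts of 0 are near the background.

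Most crypts-only peaks carried no other mark. In crypts, 1213 of the 1289 overlapped no peak of H3K4me1, H3K4me3, H3K27me3 or H3K9me2, 70 overlapped 1 of these marks, 5 overlapped 2 and 1, at Stag3, overlapped 3. The total of 76 with another mark (5.90%, 4.74 to 7.32%) was close to the share in shared crypts peaks (5.97%, 4.56 to 7.79%) and above that in villi-only peaks (2.87%, 2.07 to 3.97%). By the middle base of the peak these shares were 3.49% (2.62 to 4.64%), 3.35% (2.32 to 4.79%) and 2.13% (1.46 to 3.11%), and the 3 intervals overlap. H3K9me2 met no crypts-only peak, but its crypts list covers only 0.00358 Mb. In villi, another mark met 7.14% of crypts-only (5.86 to 8.67%), 7.77% of shared crypts (6.14 to 9.78%) and 4.51% of villi-only peaks (3.48 to 5.83%). With each set taken in its own compartment, the intervals of crypts-only and villi-only peaks overlap.

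H3K4me1, which marks enhancers, was the most frequent. It overlapped 55 crypts-only peaks in crypts (4.27%, 3.29 to 5.51%), against 20 shared (2.39%, 1.55 to 3.66%) and 16 villi-only peaks (1.31%, 0.810 to 2.12%), and its peaks cover 3.79% of the sequenced bases. By the middle base of the peak these shares were 2.17% (1.51 to 3.12%), 0.597% (0.255 to 1.39%) and 0.820% (0.446 to 1.503%), so the intervals of crypts-only and shared peaks overlap in the first measure and not in the second. Within the parts of the list by score, the second part did not show this order, with 3.93% of crypts-only and 4.03% of shared peaks. In all 4 parts the intervals of crypts-only and shared peaks overlap, with only 2, 6, 2 and 10 shared peaks on H3K4me1 from the weakest to the strongest. In villi 59 of the crypts-only peaks overlapped H3K4me1 (4.58%, 3.56 to 5.86%), against 31 shared (3.70%, 2.62 to 5.21%) and 19 villi-only peaks (1.56%, 1.00 to 2.42%), and 39 crypts-only peaks did so in both compartments. The strongest were the wide peak near Yes1 (22.0), a peak near Uqcrfs1 (19.6), that in Pnkd and at the promoter of Tmbim1 (19.6), and intronic peaks in Btnl9, a butyrophilin-like gene (19.5), and Peli2, a ubiquitin ligase of Toll-like receptor signalling (18.4). They also included Slc22a14 (18.4), Nlrc4, an inflammasome sensor (17.5), and a peak near Susd6 (17.2). Of these 8, all but those in Btnl9 and near Susd6 met H3K4me1 in villi too.

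H3K27me3, the mark of Polycomb repression, was called in crypts at 21 crypts-only peaks (1.63%, 1.07 to 2.48%), against 26 shared (3.11%, 2.13 to 4.51%) and 16 villi-only peaks (1.31%, 0.810 to 2.12%), and its peaks cover 0.765% of the sequenced bases. By the middle base it met 1.24% of crypts-only (0.765 to 2.01%), 2.51% of shared and 1.23% of villi-only peaks. In villi it was called at 31 crypts-only (2.40%, 1.70 to 3.39%), 30 shared (3.58%, 2.52 to 5.07%) and 33 villi-only peaks (2.71%, 1.93 to 3.78%), where its peaks cover 1.34%, and 18 crypts-only peaks carried it in both compartments. Of the 21, 9 lay within 1 kb of a start site, beside 36 of all 1289 crypts-only peaks (2.79%), and these 9 included Bglap3, Grb10, Gnas, Stag3 and Rbmxl2. Those at Stag3 and Rbmxl2 did not meet H3K27me3 in villi. Ajm1, with a peak of 1456 bp without a masked base, and Pigm, an enzyme of GPI anchor synthesis, had H3K27me3 in both compartments. H3K4me3 met 7 crypts-only peaks in crypts (0.543%, 0.263 to 1.12%), against 0.597% of shared and 0.328% of villi-only peaks, and its peaks cover 1.11% of the sequenced bases. By the middle base it met 3 crypts-only peaks (0.233%, 0.0792 to 0.682%), 0.239% of shared and 0.0820% of villi-only peaks. In villi it also met 7 crypts-only peaks (0.543%), with 5 common to both compartments, against 1.08% of shared and 0.246% of villi-only peaks, and there it covers 1.13%. Those of crypts were at Stag3, Orc2, Csf2ra, Dnaaf1, Rftn2, Zranb2 and Crlf2. Since the samples are mixtures of cells, marks that overlap at 1 place may come from different cells or alleles, and this cannot be told apart here.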

How the data were processed

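Deposited peak lists of 10 libraries were used (crypts and villi, 5 modifications), and the inputs were not analysed here. Reads were mapped by the authors with Bowtie 1.1.2 (mm10, and dm6 for the spike-in), with 1 alignment kept per read, duplicates were removed, and the authors called peaks with MACS2 2.1.1 at a p-value of 1e-10. The deposited value of each peak was read as a −log10 p-value of the authors (a q-value is possible) and does not use the spike-in. The chromatin amount, the unit of the antibody amount, the time with beads and the bead type differ between labels and methods.

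Peaks were compared with NumPy 2.4.6, SciPy 1.17.1 and pandas 2.3.3 under Python 3.11.15, 50-base words were counted on both strands with Numba 0.67.0, and sequences were compared with BLAST 2.17.0 (80% identity over 200 bp, and 240 of 300 bases for family copies). Genes came from GENCODE M21, sequence and soft-masking from RefSeq GRCm38.p6. On 2000 simulated peaks the overlap code found the planted overlaps. Shares carry 95% Wilson intervals.

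The members and gene lists were chosen with earlier results of these data known. Named are genes with a start site within 1 kb of a crypts-only peak, genes at the 10 strongest, 5 widest and 5 most isolated peaks, genes with 3 or more peaks and members of the lists. Other genes were named after their values were seen: those at the limit of the rule, at peaks without a missing villi number, at families, at 84-base repeats and under other marks.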

Additional observations from a re-analysis of the deposited data

How the results depend on the processing

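For crypts-only peaks, 8 results (their number, the medians of masked bases and unique words, and the shares near villi peaks, in genes, with another mark, with a similar sequence and without a missing villi number) were recomputed with a reciprocal overlap of 50%, with no villi peak within 1 kb, with the upper 50% of the crypts list by score, with peaks under 1 kb apart merged and on the autosomes only. The promoter share and the exon, zinc finger, 84-base and single-mark results, and the comparisons with shared and villi-only peaks, were not recomputed under these 5 settings. The other settings concerned 1 to 3 results each. Of 48 values, 36 stayed within the interval of the main value or, for the number of peaks, within 1.5 times of it. Among these, 1 could not move, since the peaks added by the reciprocal overlap do not enter the share without a missing villi number. The autosomes held 1287 of the 1289 peaks, so the 8 values of that setting, all of them kept, could hardly move either. With the upper 50% the number of peaks was 558 and the median of unique 50-base words 91.6%. The share within 10 kb of a villi peak was 27.9% under the reciprocal overlap, 13.1% without villi peaks within 1 kb and 14.0% after merging. The promoter share was 11.7% with a window of 5 kb and 8.38% with start sites of all annotated transcripts. A similar sequence was found for 21.7% at 90% identity and 28.9% over 400 bp, and the median of unique 100-base words was 100%. By the middle base of the peak, a setting chosen after seeing the data, 1.78% lay at a promoter and 3.49% met another mark in crypts. Against the share of sequenced bases, the middle base turned the promoter share from above to below the 2.44% of the window, and that of H3K4me1 in crypts from 4.27 to 2.17%, around the 3.79% its peaks cover.

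No paired analysis was possible because each group had 1 library. Depth is unknown, so an absent villi peak is not the absence of the mark.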
